A study of Danio rerio with 44 samples.

Results

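PFOS and PFECHS are both fluorinated sulphonates, and they differ in the carbon skeleton: PFOS (perfluorooctane sulphonate) carries a straight chain, and PFECHS (perfluoroethylcyclohexane sulphonate) carries a ring. Their effects on gene expression were compared in wild-type zebrafish embryos by RNA sequencing of whole animals. The comparison used 30 of the 44 libraries of the series, namely 12 pools exposed to PFOS, 12 exposed to PFECHS and 3 solvent controls for each compound. The rule that picks the libraries uses compound and treatment and no measured value. Exposed pools received 0.001, 0.1, 1 or 5 mg/L of a compound, with 3 pools at each concentration. The solvent, 0.1% DMSO, was the same in exposed pools and controls, and controls received no compound. Concentrations were matched by mass, so the moles of each compound differed. Exposure lasted 72 h, from 24 to 96 hours after fertilization, and 20 embryos were pooled into each library. The p-values below measure the spread between such pools, not between single fish. RNA from whole embryos cannot tell fewer cells of a type from less RNA per cell.

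Perfluorinated sulphonates persist in water and bind proteins that carry fatty acids. In rodents PFOS activates the nuclear receptor PPAR alpha, which switches on fatty acid oxidation, and it lowers circulating cholesterol. PFECHS has been used as a corrosion inhibitor in aircraft hydraulic fluids. Between 24 and 96 hours the zebrafish embryo hatches, lays down muscle, cartilage and retina, and lives on its yolk, so many of its genes change steadily with age. The question set for the series was which genes respond to sub-lethal and environmental concentrations of each compound, and putting PFOS beside PFECHS asks whether a straight chain and a ring give different responses.

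Libraries held 24.5 M to 36.5 M counts (M, mega), so 1 count equalled 0.0274 to 0.0409 CPM, the count scaled to library size. The largest axis of variation among the 30 libraries carried 25.6% of the variance, and its sign was set so that the controls averaged below 0. On it the PFOS controls scored between -45.7 and 6.05 and the PFOS exposed pools between -32.8 and 55.1, with a median of 33.8. The PFECHS controls scored between -58.9 and -24.9 and the PFECHS exposed pools between -53.9 and 32.4, with a median of -6.84. The exposed medians were above the control medians, which were -27.2 for PFOS and -42.5 for PFECHS, but the ranges overlapped in both series. Over both series together the sign rule itself puts exposed pools above controls on average, so that direction is not a result. PFOS control replicate 3 had the highest score of all controls and lay above most PFECHS exposed pools. The part of this axis in the results below was not tested. Of the exposed libraries, 4 stand at the end of the deposited table, away from their series (PFOS at 0.1 mg/L replicate 3, at 1 mg/L replicate 1 and at 5 mg/L replicate 3, and PFECHS at 5 mg/L replicate 3), and 0 controls stand there.

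No gene passed the test for a different response to the straight chain and the ring, given the spread between pools. The comparison took, for each gene, the change with PFOS (the mean of its 4 exposed groups minus its own controls) and subtracted the change with PFECHS formed the same way. Across 22241 genes tested, edgeR's quasi-likelihood test called 0 at a Benjamini-Hochberg adjusted p of 0.05, which is 0% of the genes. An unadjusted p under 0.05 was reached by 377 genes, or 1.70%. That is below the share of 0.05 that evenly spread p-values would give. DESeq2 called 1 gene, which has no symbol in the annotation and is listed as ENSDARG00000114363. Its log2 difference by DESeq2 was -34, too large to be read as a fold. A missed threshold does not show that the compounds act alike, and the width of the intervals says how large a difference could still be. The 95% interval of the difference lay within a 2-fold difference in either direction for 16077 genes (72.3%), and for 15416 of the 17276 genes at or above a mean log2 CPM of 1 (89.2%). Within 1.5-fold it lay for 10449 genes (47.0%).

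The genes described next had the smallest unadjusted p in each direction among genes that carry a proper symbol and reach a mean log2 CPM of 1. None of them was called, and their values are a description. The 6 with the larger rise under PFOS were sema3ga, a secreted axon guidance cue of the semaphorin family; FBP2, a fructose bisphosphatase of gluconeogenesis; ITGA10, a collagen-binding integrin subunit; ppp1r3aa, which targets a phosphatase to glycogen; fam83ga; and slc2a11b, a member of the glucose transporter family.

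For sema3ga the PFOS controls stood at 2.6, 1.94 and 1.72 CPM, and the 12 PFOS exposed pools ran from 3.19 through a median of 3.91 to 6.12 CPM. The PFECHS controls stood at 2.64, 3.75 and 3.32 CPM, and the PFECHS exposed pools ran from 2.19 through 3.50 to 4.89 CPM. Every PFOS exposed pool was above every PFOS control, while the PFECHS groups overlapped and the PFECHS controls were themselves above the PFOS controls. The log2 change of sema3ga was 1.00 ± 0.19 (SE) with PFOS and 0.12 ± 0.18 with PFECHS. The difference between them was 0.88 ± 0.25, with a 95% interval from 0.36 to 1.40 and an unadjusted p = 0.00174 (edgeR).

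FBP2 rose from 29.6, 28.6 and 39.7 CPM in the PFOS controls to between 41.2 and 78.0 CPM in the PFOS exposed pools, with a median of 55.0 CPM and no overlap. With PFECHS the controls of FBP2 were at 48.8, 30.6 and 29.5 CPM and the exposed pools between 30.3 and 46.2 CPM, so the groups overlapped. The difference of changes for FBP2 was 0.67 ± 0.22 on the log2 scale, with an interval from 0.22 to 1.12. It was 0.40 without PFECHS control replicate 1, the highest of those controls.

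ITGA10 differed by 0.57 ± 0.19 on the log2 scale, ppp1r3aa by 0.47 ± 0.15, fam83ga by 1.12 ± 0.37 and slc2a11b by 0.41 ± 0.14. The PFOS exposed pools lay wholly above the PFOS controls for ITGA10, fam83ga and slc2a11b, and the groups overlapped for ppp1r3aa. The PFECHS groups overlapped for all of these genes. For fam83ga the PFECHS controls (2.88, 2.09 and 3.18 CPM) were above the PFOS controls (1.4, 0.762 and 1.3 CPM), and the exposed medians were 2.73 and 2.55 CPM.

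In the other direction stood 6 genes whose change was lower with PFOS than with PFECHS. GINS3 encodes a subunit of the helicase that opens DNA for replication, and lrr1 encodes a protein that helps take the replication machinery off chromatin, as known from worm and frog. The others were TLCD5 (ENSDARG00000035163, a membrane protein with a TLC domain), rnf41l, which resembles a ubiquitin ligase, CHN2, a Rac-inactivating chimaerin, and WDPCP, which takes part in building cilia.

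GINS3 stood at 7.16, 8.03 and 7.34 CPM in the PFOS controls and between 3.29 and 6.18 CPM in the PFOS exposed pools, with a median of 4.66 CPM. In the PFECHS controls it was at 5.96, 5.69 and 6.94 CPM and in the exposed pools between 4.96 and 7.73 CPM. The PFOS groups were apart and the PFECHS groups overlapped. GINS3 fell by 0.67 ± 0.11 on the log2 scale with PFOS (edgeR adjusted p = 0.0221), changed by -0.12 ± 0.11 with PFECHS, and differed by -0.55 ± 0.16, with an interval from -0.88 to -0.21.

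The difference of changes was -0.47 ± 0.15 for lrr1, -0.68 ± 0.23 for TLCD5, -0.51 ± 0.18 for rnf41l, -0.83 ± 0.30 for CHN2 and -0.59 ± 0.22 for WDPCP, all on the log2 scale. The PFOS exposed pools lay wholly below the PFOS controls for lrr1 and TLCD5. For TLCD5 the PFOS controls ran from 9.86 to 10.5 CPM, above every library of the PFECHS series, whose highest was 9.65 CPM. For CHN2 and WDPCP the PFECHS change was above 0 (0.57 ± 0.22 and 0.37 ± 0.16) and the PFOS change below 0 (-0.26 ± 0.20 and -0.22 ± 0.15). The CHN2 controls stood apart, at 2.25 to 2.91 CPM for PFOS and 1.18 to 1.67 CPM for PFECHS. Its exposed medians were nearly equal, at 2.21 CPM with PFOS and 2.22 CPM with PFECHS, so its difference of changes came from the controls.

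The gene with the smallest p of all was klf1, a transcription factor of red blood cell formation, whose level was under the condition of a mean log2 CPM of 1. Its PFOS controls held 0.0977, 0.0952 and 0.153 CPM, where 3 counts equal 0.0994, 0.0950 and 0.111 CPM, and its PFOS exposed pools held 0.286 to 0.981 CPM. The PFECHS controls held 0.284, 0.228 and 0.803 CPM and the exposed pools 0.142 to 0.646 CPM. The difference for klf1 was 2.55 ± 0.61 on the log2 scale with an unadjusted p = 0.000327 (edgeR). It rested on a few counts in the PFOS controls and was 1.77 without PFECHS control replicate 3.

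**Figure D1:**
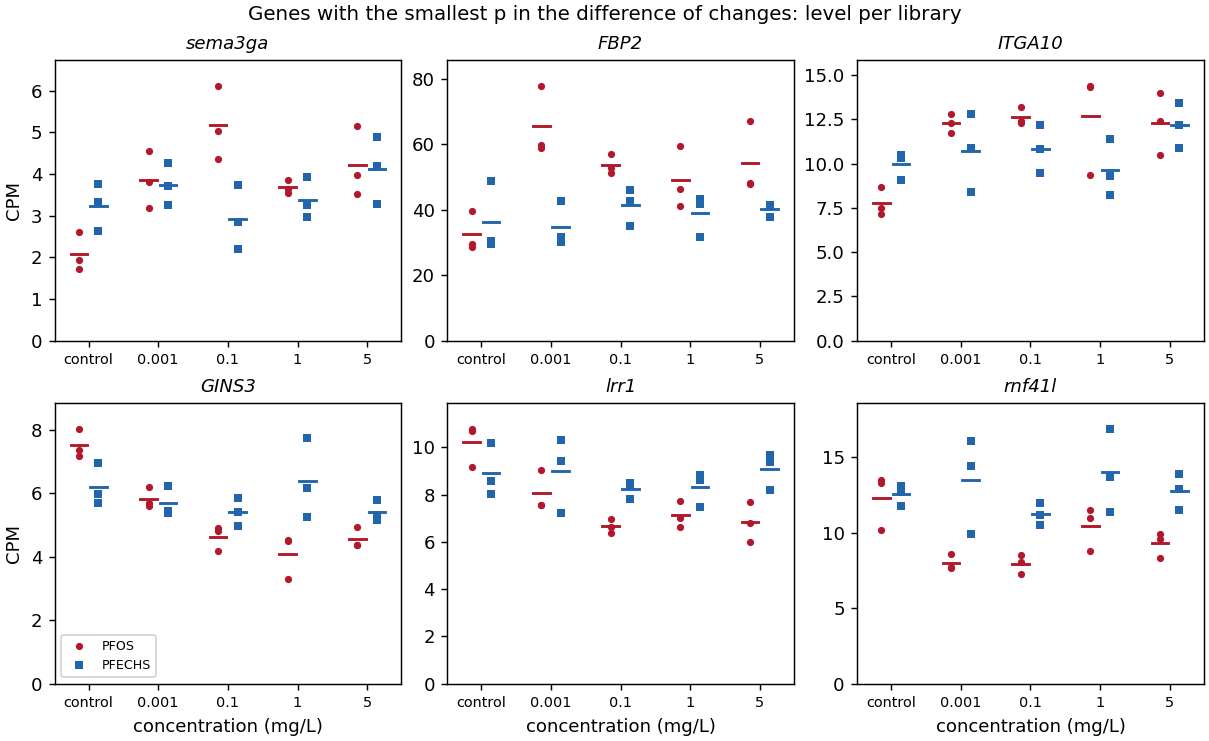
Level in CPM (linear axis from 0) of 6 genes with small p in the difference of changes, by concentration in mg/L. Each point is a pool of 20 embryos and each bar the mean of 3 pools, with PFOS as circles and PFECHS as squares. In sema3ga and GINS3 the 2 sets of controls stand apart and the PFECHS groups overlap.

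At each matched concentration, too, 0 genes were called by edgeR, again 0% of those tested. There is 1 pair of compounds at 4 concentrations, and the controls are the same at each. An unadjusted p under 0.05 was reached by 418 genes at 0.001 mg/L, 571 at 0.1 mg/L, 516 at 1 mg/L and 432 at 5 mg/L, and DESeq2 called 0, 1, 0 and 1. The gene called was again ENSDARG00000114363, with log2 values too large to be read as folds. With adjustment over genes and the 4 concentrations together the counts stayed at 0. The intervals were wider than for the pooled comparison: they lay within 2-fold for 13679 genes at 0.001 mg/L (61.5%) and for 13985 at 5 mg/L (62.9%).

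By the same rule on symbol and level, the genes with the smallest p in each direction at each concentration are given as values only. At 0.001 mg/L FBP2 stood at 78.0, 58.8 and 59.9 CPM with PFOS and at 30.3, 31.7 and 42.7 CPM with PFECHS, a difference of changes of 1.07 ± 0.27 on the log2 scale with an interval from 0.50 to 1.63. At the same concentration pcyt1ba, an enzyme of phosphatidylcholine synthesis, differed by -0.80 ± 0.25. The PFOS pools of FBP2 were all above the PFECHS pools.

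At 0.1 mg/L sema3ga stood at 5.03, 4.35 and 6.12 CPM with PFOS and at 2.19, 2.85 and 3.74 CPM with PFECHS, and differed by 1.45 ± 0.31. SLC6A3, the dopamine transporter, differed by -0.89 ± 0.23. In both genes the exposed pools of the compounds were apart at this concentration.

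At 1 mg/L l3mbtl1b, a chromatin-binding protein gene, differed by 0.70 ± 0.17 and GINS3 by -0.92 ± 0.21. At 5 mg/L SPRY4, a feedback inhibitor of growth factor signalling, stood at 42.3 and 53.7 CPM in 2 PFOS pools and higher still in the remaining pool, and at 34.2, 31.7 and 35.5 CPM with PFECHS, against controls between 29.1 and 33.5 CPM. The SPRY4 difference was 0.68 ± 0.15, with an interval from 0.38 to 0.98. MRTFB, a coactivator of serum response factor, differed by -1.48 ± 0.37 at 5 mg/L: its PFECHS pools held 4.24, 3.84 and 2.97 CPM, and its PFOS pools held 1.93, 1.54 and 1.82 CPM, beside controls from 1.57 to 2.56 CPM.

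A difference in how steeply genes rose or fell with concentration uses no control library. It was expressed per 10-fold step of concentration over the 4 exposed groups. By edgeR 0 genes (0%) were called, with 733 at an unadjusted p under 0.05, and DESeq2 called 3. The smallest p belonged to vgf, a secreted neuropeptide precursor of neurons and endocrine cells.

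With PFOS, vgf stood at 27.9, 23.3 and 22.6 CPM at 0.001 mg/L, at 30, 32.3 and 28.4 CPM at 0.1 mg/L, at 30.5, 43.4 and 61.1 CPM at 1 mg/L and at 77.5, 94.9 and 44.4 CPM at 5 mg/L. With PFECHS it stood at 36.6, 36.9 and 36.1 CPM at 0.001 mg/L and at 35.6, 31.1 and 26.4 CPM at 5 mg/L. The controls were at 33.1, 41.3 and 26.4 CPM for PFOS and at 34.6, 31.0 and 32.8 CPM for PFECHS. At 0.001 mg/L the PFOS pools of vgf were all below the PFECHS pools, and at 5 mg/L they were all above them.

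The slope of vgf was 0.39 ± 0.06 log2 per 10-fold with PFOS and -0.03 ± 0.05 with PFECHS. The difference was 0.42 ± 0.08, with an interval from 0.26 to 0.59 and an edgeR adjusted p = 0.261. In 5 of 38 alternative settings vgf passed the threshold, with the smallest adjusted p = 0.00118 without the 4 libraries at the end of the table and the largest 0.969. DESeq2 was one of the 5 (adjusted p = 0.00134), and the other DESeq2 calls were PRKG1, a cGMP-dependent kinase, and IRS2, an insulin receptor substrate, with slope differences of 0.58 and 0.28 on the same scale. In the other direction TMED1 (ENSDARG00000017255), a cargo receptor of the early secretory route, had a slope difference of -0.21 ± 0.05 with an adjusted p = 0.677 by edgeR.

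The parts of the difference were then taken singly. With PFOS 756 genes changed, or 3.40% of those tested, 384 higher (1.73%) and 372 lower (1.67%), and 114 of them by at least 2-fold (edgeR, n = 12 against 3). With PFECHS edgeR called 0 genes (0%), DESeq2 called 6, and 2691 reached an unadjusted p under 0.05. Calls for PFOS beside none for PFECHS do not show a difference, since the test of the difference itself called 0. The PFOS count moved by more than 1.5 times in 22 of the 30 fits that left out 1 library, from 0 without PFOS control replicate 2 and 1 without replicate 1 to 2420 without the 1 mg/L replicate 3. It was 2291 by DESeq2 and 3 in a fit over all 44 libraries of the 3 compounds.

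The mean of both changes, which rests on 24 exposed pools and 6 controls, was called for 3735 genes (16.8%), 1897 higher (8.53%) and 1838 lower (8.26%). Of these 227 moved by at least 2-fold. That count was 754 without PFOS control replicate 2, 1117 without PFECHS control replicate 2, 1457 without PFOS control replicate 1, 2209 without PFECHS control replicate 3 and 235 over all 44 libraries, and DESeq2 called 4820.

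Among the called genes with a proper symbol at that level, UGP2 (ENSDARG00000005578), which makes the sugar nucleotide for glycogen, rose most with PFOS. It held 1.69, 1.56 and 3.17 CPM in the PFOS controls and 2.90 to 21.0 CPM in the PFOS exposed pools, with a median of 11.9 CPM. In the PFECHS controls it held 1.3, 1.18 and 4.38 CPM, and in the exposed pools 3.83 to 14.9 CPM with a median of 7.04 CPM. In both series the highest control reached into the range of the exposed pools.

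UGP2 rose by 2.36 ± 0.51 on the log2 scale with PFOS (adjusted p = 0.0268) and by 2.00 ± 0.35 in the mean of both compounds (adjusted p = 0.00532, edgeR). Its PFECHS change was 1.64 ± 0.49, and the difference of 0.72 ± 0.66 had an interval from -0.63 to 2.07. By the same rule the peroxidase EPX (ENSDARG00000019521) and elastin, elnb, rose with PFOS, by 1.76 ± 0.44 and 1.65 ± 0.38, beside PFECHS changes of 1.3 ± 0.44 and 0.88 ± 0.37.

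For the mean of both compounds the transglutaminase tgm1l2 rose by 1.84 ± 0.52. CERCAM, a cell adhesion protein gene, was called too, but it had 0 counts in all 3 PFECHS controls, which allows up to 0.115, 0.115 and 0.109 CPM, so no fold is given. Its PFECHS exposed pools ran from 0 to 5.50 CPM, its PFOS controls from 0.381 to 1.34 CPM and its PFOS exposed pools from 0.393 to 5.85 CPM.

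Among the genes named for the largest falls, the neurogenesis factor ascl1b held 21.9, 22.4 and 18.6 CPM in the PFOS controls and 10.1 to 14.9 CPM in the exposed pools, with no overlap. In the PFECHS controls it held 21.3, 22.1 and 25.1 CPM and in the exposed pools 11.4 to 21.5 CPM, so that the highest exposed pool reached the lowest control. It fell by 0.62 ± 0.10 in the mean (adjusted p = 0.00444), with a difference between compounds of -0.22 ± 0.22.

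The repressor HES2 had a copy called with PFOS (ENSDARG00000068168, -0.83 ± 0.21) and another called in the mean (ENSDARG00000074897, -0.69 ± 0.18). Copies under the same symbol can share reads, so the split between them is uncertain. The related HELT fell by 0.78 ± 0.19 with PFOS and the homeobox gene sebox by 0.65 ± 0.21 in the mean. Their differences between compounds were -0.38 ± 0.28 and -0.06 ± 0.43, with intervals that held 0.

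For PFECHS, where no gene was called, the smallest p among genes with a proper symbol at that level were in TMEM163 (ENSDARG00000079858), a zinc efflux protein, and in CDK2AP2, which binds a cell cycle kinase. TMEM163 held 1.34, 1.21 and 1.1 CPM in the PFECHS controls and 1.70 to 3.56 CPM in the exposed pools, with no overlap, a change of 1.11 ± 0.24. With PFOS its change was 0.68 ± 0.22, from controls of 2.02, 1.40 and 2.37 CPM. In the mean of both compounds TMEM163 rose by 0.90 ± 0.16 (adjusted p = 0.00532) and CDK2AP2 fell by 0.33 ± 0.06 (adjusted p = 0.00526).

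**Figure D2:**
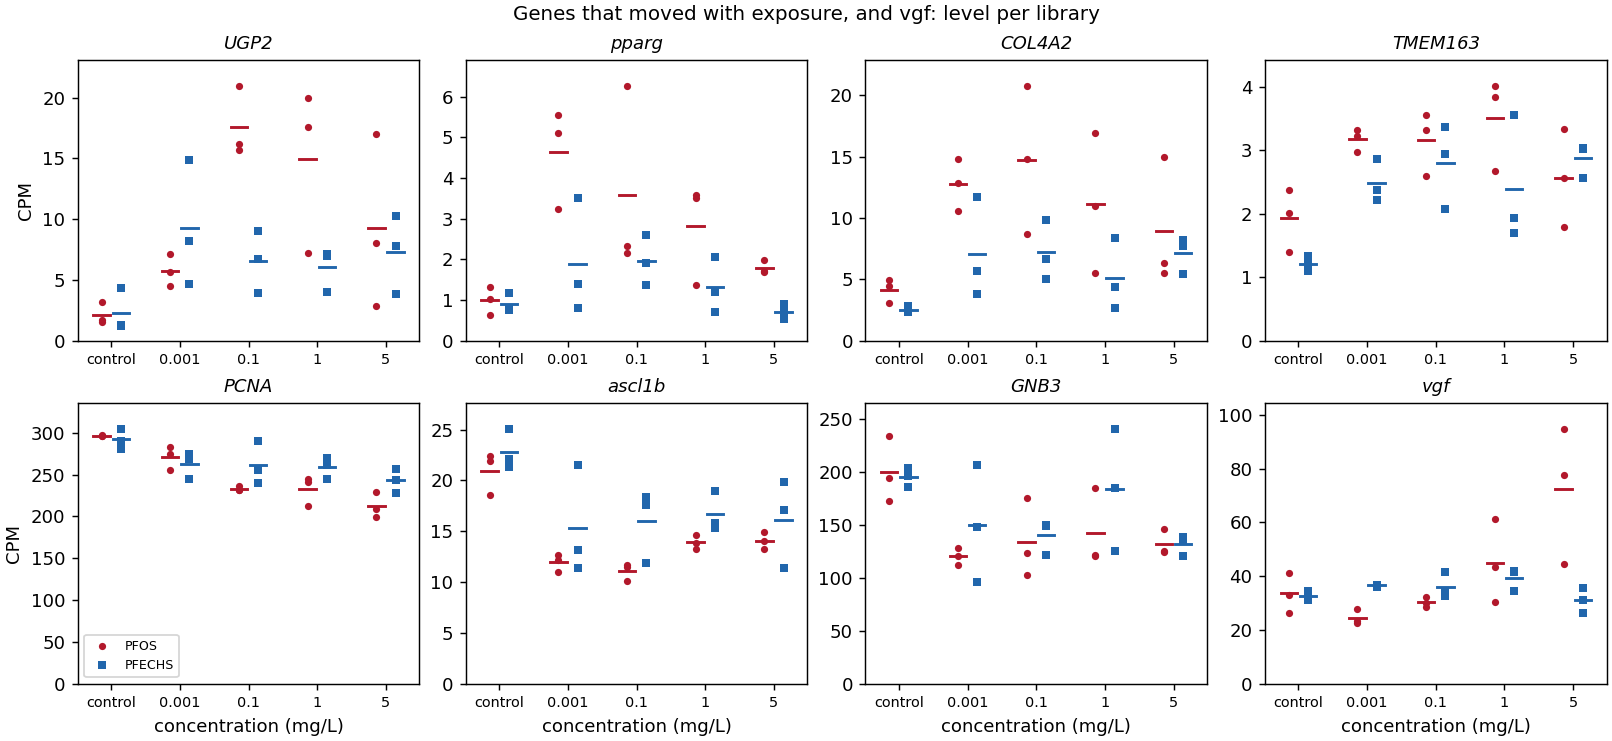
Level in CPM (linear axis from 0) of 7 genes called in the mean change and of vgf, by concentration in mg/L. Points are pools of 20 embryos, bars the mean of 3 pools, with PFOS as circles and PFECHS as squares. The UGP2 pools at 0.1 mg/L PFOS are all above 15 CPM, and vgf rises with PFOS from 0.1 to 5 mg/L.

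In most genes the estimated changes with PFOS and with PFECHS had the same sign, though most of these estimates were not called. Of the 384 genes called higher for PFOS, 375 had a PFECHS change above 0, with a median log2 change of 0.77 for PFOS and 0.38 for PFECHS. Of the 372 called lower, 367 had a PFECHS change below 0, with medians of -0.37 and -0.22. Of all genes tested with a PFOS change above 0, 79.1% had a PFECHS change above 0. Among all genes with a PFOS change below 0, 79.5% had a PFECHS change below 0. Over all genes tested 51.9% had a PFECHS change above 0. The genes were picked for a large PFOS change, so a smaller PFECHS change is built into these medians.

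Across the same 17276 better expressed genes the PFOS and PFECHS changes had a Pearson's r of 0.776 and a Spearman's rho of 0.796, as a description. Over all 22241 genes these were 0.466 and 0.660. The changes have separate controls but share the embryos' age and the axis described above, and genes are not independent replicates.

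**Figure D3:**
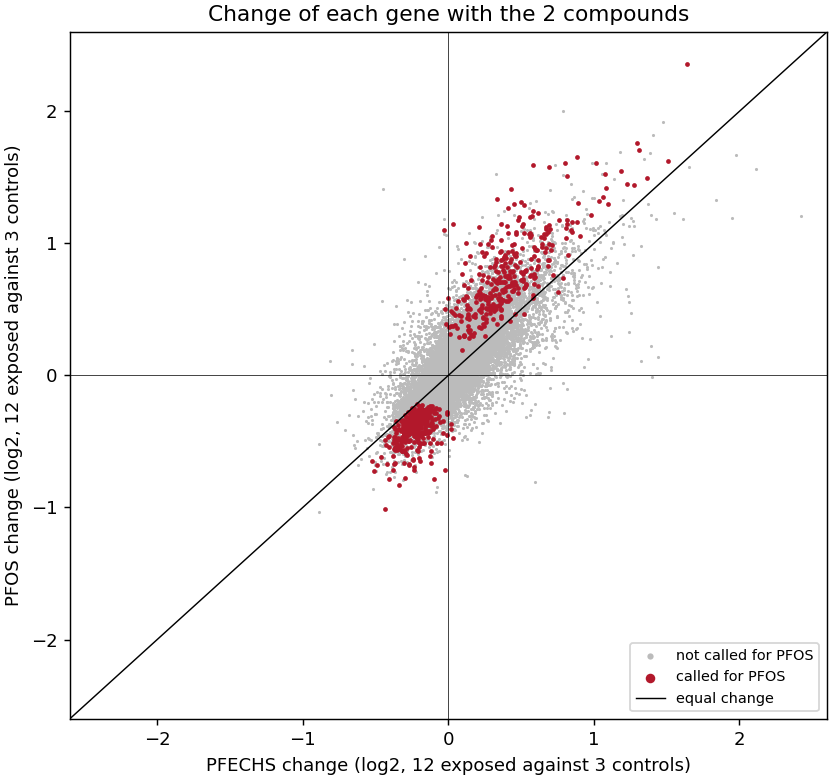
Log2 change with PFOS (vertical axis) against log2 change with PFECHS (horizontal axis), each from 12 exposed pools and 3 controls, for 17271 genes at or above a mean log2 CPM of 1, with 5 genes beyond the axes. Points in colour are genes called for PFOS, and the diagonal marks equal change. The cloud runs along the diagonal, and the coloured genes lie mostly on the PFOS side of it, as their choice builds in.

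Another view of size takes the genes called in the mean change, which gives the compounds equal weight. That choice is not neutral, since a gene can pass through a large change with 1 compound alone. Over all genes tested the median size of the log2 change was 0.213 with PFOS and 0.158 with PFECHS. The shares below describe the picked genes and do not test which compound acts more strongly. By means of log2 CPM, 1451 of the 1897 genes called higher (76.5%) rose further with PFOS than with PFECHS, with median changes of 0.60 and 0.43. Of the 1838 called lower, 1542 (83.9%) fell further with PFOS, with medians of -0.29 and -0.22. Over all genes with a mean change above 0 the share was 63.1%, and below 0 it was 66.5%. The shares of the picked genes hang on the few controls: without PFOS control replicate 2 they were 64.3% and 1290 of 1838, and without PFOS control replicate 3 they were 80.9% and 89.9%. The shares over all genes moved too, to 57.5% and 60.1% without PFOS control replicate 2 and to 69.3% and 73.7% without PFOS control replicate 3.

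The median change of these genes did not rise steadily with concentration, which was not tested. For the genes called higher in the mean, the median log2 change with PFOS was 0.60 at 0.001 mg/L, 0.70 at 0.1 mg/L, 0.58 at 1 mg/L and 0.55 at 5 mg/L. With PFECHS it was 0.45, 0.50, 0.32 and 0.51 at the same concentrations. At each of the 4 the PFOS median was above the PFECHS median, in genes picked as above. The 4 values of a compound share its 3 controls.

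The controls of both series, which received the same solvent, were also set against each other. Between PFOS and PFECHS controls edgeR called 0 genes (0%), with 379 (1.7%) at an unadjusted p under 0.05, and DESeq2 called 1. A general difference between the controls was therefore not shown. The 12 PFOS exposed pools set directly against the 12 PFECHS exposed pools, without controls, gave 892 called genes (4.01%), 506 higher with PFOS (2.28%) and 386 lower (1.74%). Of these 892 genes 782 had a difference of the same sign between the controls. The matching share over all genes tested was not computed, so this count cannot be read as particular to the called genes. For the 506 higher genes the median difference was 0.56 between exposed pools and 0.18 between controls, and for the 386 lower genes it was -0.34 and -0.15. Series and compound cannot be told apart in that direct comparison.

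The direct count was also sensitive to single pools, from 75 without PFECHS 1 mg/L replicate 3 to 3129 without PFOS 1 mg/L replicate 3. With the 4 libraries at the table end left out, edgeR called 5 genes: SPRY4, DUSP1, a phosphatase of the same growth factor pathway, FHL2, BCL6B and a gene with a placeholder name, all higher with PFOS. The ubiquitin ligase-like rnf41l shows the direct comparison without a control offset: its control difference was -0.03 ± 0.16 and its exposed difference -0.53 ± 0.08 (adjusted p = 0.00761). It was not called by edgeR without the 4 libraries at the table end or over all 44 libraries. For sema3ga the control difference was -0.63 ± 0.23 and the exposed difference 0.25 ± 0.11, so the control difference was the larger of the parts of its difference of changes.

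Gene lists, matched by symbol, are given by the count of measured members called in the mean change and by the median of each compound. Over all genes tested the medians were 0.03 for PFOS and 0.01 for PFECHS, and 0 genes of any list were called in the difference. Members are named by the smallest p in the mean change, a choice made after values were seen. Over all genes tested, 8.53% were called higher and 8.26% lower in this mean change, and each list count is to be read against these shares. Counts of members by the sign of their difference of changes have a background too. Of all 11918 genes with a PFOS change above 0, 8476 had a difference above 0. Of all 10322 genes with a PFOS change below 0, 2479 had a difference above 0. Counts under other fits were computed for 10 of the 48 lists, and a part of them is given here or with the list. For the other lists they were not computed. Over all 44 libraries the counts were 0 of 53 for collagens and matrix, 0 of 41 for skeletal muscle, 1 of 31 for heart muscle, 0 of 35 for cartilage and bone, 3 of 60 for the cell cycle and 0 of 63 for phototransduction. In that fit they were 1 of 36 for Hox genes and 0 of 40 for conjugation and export. For PPAR alpha and fatty acid oxidation the count was 0 of 46, and for the cytosolic ribosome 0 of 74.

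Of 53 genes of collagens and matrix, 23 rose and 0 fell in the mean change. The median log2 change was 0.56 with PFOS and 0.26 with PFECHS, and 51 of the 53 members had a difference of changes above 0, with a median of 0.28. That count was 39 without PFECHS control replicate 1, 43 without PFOS control replicate 2 and 52 without PFOS control replicate 3. By concentration the median difference was 0.395 at 0.001 mg/L, 0.274 at 0.1 mg/L, 0.382 at 1 mg/L and 0.0814 at 5 mg/L. COL4A2, a basement membrane collagen, rose by 1.43 ± 0.28, COL5A2, a fibril collagen, by 0.87 ± 0.18, and elnb by 1.27 ± 0.27.

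COL4A2 held 4.43, 3.11 and 4.93 CPM in the PFOS controls and 5.53 to 20.8 CPM in the exposed pools, with no overlap. In the PFECHS controls it held 2.35, 2.84 and 2.45 CPM, and in the exposed pools 2.66 to 11.7 CPM, so the groups overlapped. Its difference of changes was 0.13 ± 0.53. The count of matrix genes that rose was 6 without PFOS control replicate 2, 8 without PFECHS control replicate 2, 10 without PFOS control replicate 1, 15 without PFECHS control replicate 3 and 16 without the 4 libraries at the table end. The median difference ran from 0.13 without PFECHS control replicate 1 to 0.44 without PFOS control replicate 3.

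Of 35 cartilage and bone genes 15 rose and 1 fell, with medians of 0.55 for PFOS and 0.30 for PFECHS. ENTPD5, needed for bone mineral in zebrafish, rose by 0.96 ± 0.22, the matrix linker HAPLN1 (ENSDARG00000068516) by 0.62 ± 0.16 and the phosphatase ALPL by 0.28 ± 0.07. The count of higher members was 1 without PFOS control replicate 2, 4 without PFECHS control replicate 2, 7 without PFOS control replicate 1 and 8 without PFECHS control replicate 3, and 9 with only the 1 and 5 mg/L pools. Epidermis and keratin genes rose in 8 of 41 cases, with medians of 0.38 and 0.26, among them the desmosome linkers evpla (0.56 ± 0.14) and PPL (0.68 ± 0.17).

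In the mean of both compounds 20 of 41 skeletal muscle genes rose and 0 fell, with medians of 0.46 for PFOS and 0.31 for PFECHS. The slow myosins smyhc2 and smyhc1 rose by 0.97 ± 0.22 and 0.82 ± 0.21, and the calcium release channel RYR1 (ENSDARG00000023797) by 0.78 ± 0.20. PFOS alone was called for 2 of these 41 and PFECHS for 0. In the heart list 17 of 31 rose in the mean and 0 fell, 3 were called for PFOS and 0 for PFECHS, with medians of 0.55 and 0.50: MYH7 rose by 0.96 ± 0.19, MYH6 (ENSDARG00000079564) by 0.55 ± 0.11 and TNNI1 (ENSDARG00000052708) by 0.49 ± 0.09. Myosin genes are close copies that can share reads.

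The gap between compounds in muscle was not stable. The median difference of the skeletal list was 0.18, with 39 of 41 members above 0, but it was -0.02 with 15 of 41 above 0 when PFECHS control replicate 1 was left out, and 0.42 without PFOS control replicate 3. The count of skeletal genes that rose was 1 without PFOS control replicate 2, 2 without PFECHS control replicate 2, 4 without PFOS control replicate 1 or PFECHS control replicate 3, 12 without the libraries at the table end and 31 without PFOS control replicate 3. For the heart it was 5 when any one of PFOS control replicates 1 and 2 and PFECHS control replicates 2 and 3 was left out, and the heart's median difference ran from 0.06 to 0.36 without 1 library and was 0.03 without the libraries at the table end. With only the 1 and 5 mg/L pools as exposed, 4 skeletal and 6 heart genes rose.

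Body patterning genes of the Hox clusters rose in 6 of 36 cases, with medians of 0.39 for PFOS and 0.11 for PFECHS. HOXC8 held 4.46, 4.03 and 4.78 CPM in the PFOS controls and 5.67 to 13 CPM in the exposed pools, with no overlap, and 4.62, 3.87 and 2.85 CPM against 4.28 to 9.04 CPM for PFECHS. It rose by 1.00 ± 0.16 in the mean (adjusted p = 0.00424), with a difference of 0.36 ± 0.30. The Hox count was 4 with only the 1 and 5 mg/L pools, and 1 when any one was left out of PFOS control replicates 1 and 2 or PFECHS control replicates 2 and 3.

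Of 60 cell cycle genes 24 fell and 0 rose in the mean, 10 fell with PFOS alone and 0 were called for PFECHS, and the medians were -0.21 for PFOS and -0.12 for PFECHS. The sliding clamp PCNA held 297, 296 and 296 CPM in the PFOS controls and 199 to 283 CPM in the exposed pools, with no overlap. In the PFECHS controls it held 281, 305 and 290 CPM and in the exposed pools 228 to 290 CPM, where the highest pool reached the controls.

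PCNA fell by 0.26 ± 0.05 (adjusted p = 0.00532), the mitotic kinase plk1 by 0.28 ± 0.06 and the ribonucleotide reductase subunit RRM1 by 0.22 ± 0.04. With PFOS alone these changes were -0.33 ± 0.06, -0.40 ± 0.08 and -0.32 ± 0.06, beside -0.18, -0.16 and -0.12 with PFECHS. Differences of changes were below 0 for 53 of the 60 genes, with a median of -0.11, and of all 10322 genes with a PFOS change below 0, 2479 had a difference above 0. GINS3 and lrr1, described above, also fell in the mean, by 0.39 ± 0.08 and 0.28 ± 0.07. The count that fell was 10 without PFECHS control replicate 2, 13 and 14 without PFOS control replicates 2 and 1, and 14 without PFECHS control replicate 3, and the median difference stayed between -0.14 and -0.09 in all fits that left out 1 library.

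Of 63 phototransduction genes 11 were called lower in the mean and 0 higher, 3 were called lower for PFOS and 0 for PFECHS, with medians of -0.28 for PFOS and -0.07 for PFECHS. The cone transducin subunit GNB3 fell by 0.49 ± 0.12, the cone opsin opn1lw2 by 0.44 ± 0.11 and the phosphodiesterase subunit PDE6G by 0.41 ± 0.12. GNB3 held 194, 234 and 173 CPM in the PFOS controls against 103 to 185 CPM in the exposed pools, and 186, 204 and 196 CPM against 95.7 to 241 CPM for PFECHS, so both overlapped. Differences of changes were below 0 for 57 of the 63 genes, with a median of -0.23 that ran from -0.34 without PFECHS control replicate 3 to -0.12 without PFOS control replicate 2. The count that fell was 0 without PFOS control replicate 2, up to 20 without 1 other library, 2 without PFECHS control replicate 2 or 3 and 4 without PFOS control replicate 1. With only the 1 and 5 mg/L pools as exposed 1 was lower and 1 higher. In the lens list 8 of 50 rose and 1 fell, and the median was 0.11 with PFOS and 0.23 with PFECHS.

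Neuronal genes were split, with 8 of 49 higher and 8 lower. The neurofilament gene nefma rose by 0.65 ± 0.11: it held 32.5, 31.1 and 30.7 CPM in the PFOS controls and 44.7 to 82.4 CPM in the exposed pools. With PFECHS it held 35.1, 30.7 and 31.2 CPM and 30.6 to 56.3 CPM. Its relative nefmb rose by 0.52 ± 0.12, while STMN2 (ENSDARG00000070537), a microtubule regulator of growing axons, fell by 0.34 ± 0.07. The glial list had 7 higher and 5 lower of 27, with the myelin gene mag up by 0.69 ± 0.15 and a copy of the fatty acid binding protein FABP7 (ENSDARG00000034650) down by 0.41 ± 0.09.

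**Figure D4:**
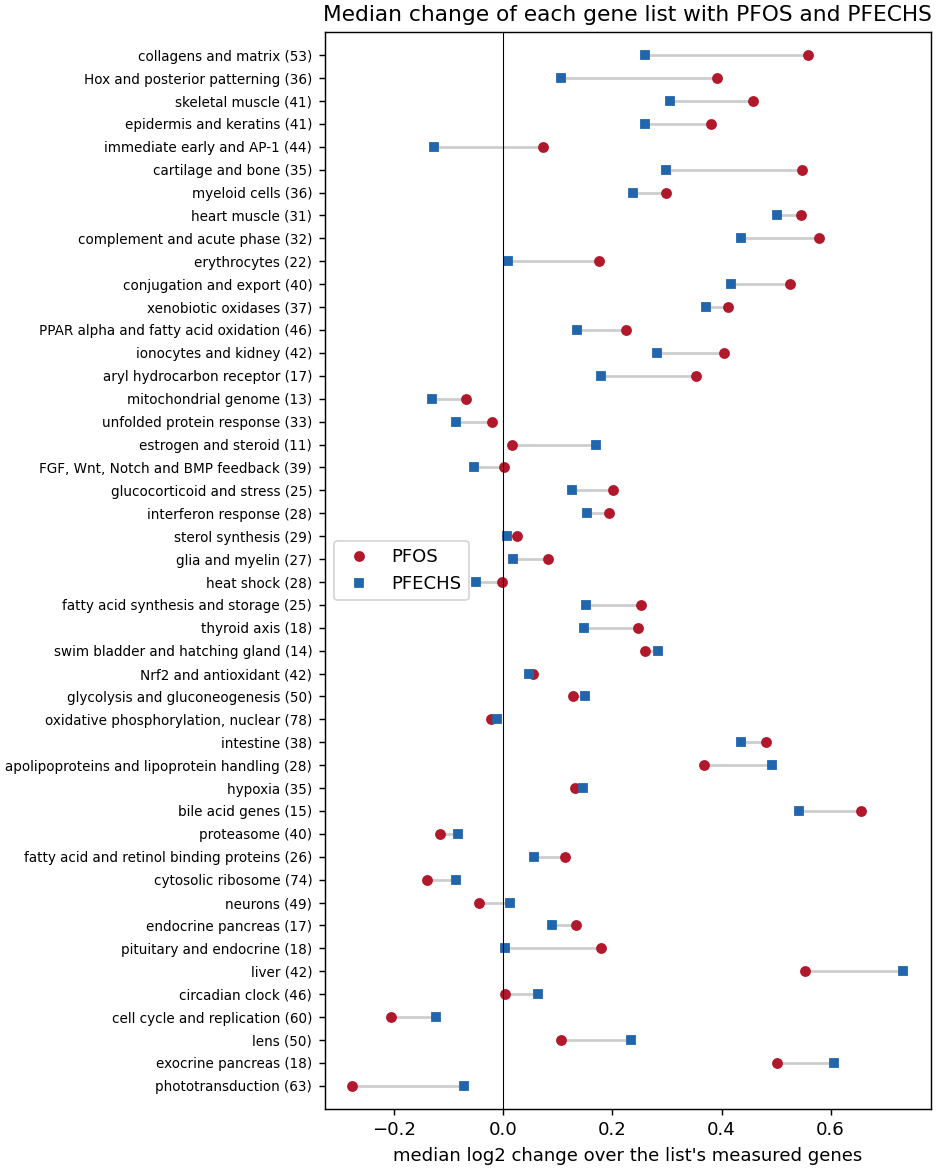
Median log2 change of the gene lists reported here with PFOS (circles) and PFECHS (squares), ordered by the median difference between the compounds, with the number of measured genes in brackets. The horizontal axis is the median over the list's genes. Most lists have both compounds on the same side of 0, and collagens and matrix stand at 0.56 and 0.26.

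Genes of lipid handling are the known targets of this class of compound, and 30 indicator genes, not all of them of lipid handling, were examined. The PFOS change was above 0 for 24 of them and the PFECHS change for 26. Over all 22241 genes tested the change was above 0 for 11918 with PFOS and for 11543 with PFECHS. In the mean change 7 of the 30 rose and 0 fell, and 2 rose with PFOS alone. Of all genes tested 8.53% were called higher in the mean and 1.73% with PFOS. The 95% interval of the difference between compounds held 0 for all 30. It lay within 2-fold for 15 of them, beside 72.3% of all genes tested.

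Among the lipid-sensing nuclear receptors, pparg, best known in mammals for fat cell formation, had the largest difference. It held 1.33, 0.635 and 1.03 CPM in the PFOS controls and 1.36 to 6.27 CPM in the exposed pools, with no overlap. With PFECHS it held 1.18, 0.796 and 0.767 CPM and 0.523 to 3.51 CPM, so the groups overlapped. It rose by 1.59 ± 0.43 with PFOS (adjusted p = 0.0451), beside 0.58 ± 0.43 with PFECHS, and the difference of 1.01 ± 0.58 had an interval from -0.19 to 2.21. At 5 mg/L, where all PFECHS pools were near the controls, the difference was 1.21 ± 0.74.

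PPARA, the receptor that drives fatty acid oxidation, changed by 0.82 ± 0.39 with PFOS and 0.50 ± 0.38 with PFECHS and was not called. PDK2, a kinase that holds back glucose oxidation, rose in the mean in both copies, by 0.41 ± 0.12 (ENSDARG00000020876) and 1.07 ± 0.32 (ENSDARG00000059054), with differences of -0.13 ± 0.23 and 0.09 ± 0.60. CPT1B, which brings fatty acids into mitochondria, rose by 0.52 ± 0.14 with a difference of 0.31 ± 0.26. Of the 46 measured genes of PPAR alpha and fatty acid oxidation 9 rose and 0 fell, with medians of 0.23 for PFOS and 0.14 for PFECHS, and the count was 2 without PFOS or PFECHS control replicate 2, 3 without PFOS control replicate 1 and 5 without PFECHS control replicate 3.

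Among the other indicators the liver fatty acid binding protein fabp10a rose by 1.21 ± 0.38, the xenobiotic receptor NR1I2 by 0.41 ± 0.13 and a copy of the glucose transporter SLC2A1 (ENSDARG00000007412) by 0.80 ± 0.17. The last rose with PFOS by 1.08 ± 0.25 beside 0.52 ± 0.24 with PFECHS. Over 38 alternative settings the difference of changes of this copy ran from 0.454 to 0.669. Another SLC2A1 copy (ENSDARG00000001437) went the other way, from -0.352 to -0.158 over the same settings, and neither copy was called in the difference. CYP7A1, the rate-limiting enzyme of bile acid synthesis, changed by 0.85 ± 0.43 with PFOS and 0.75 ± 0.44 with PFECHS, and the drug-metabolizing cyp3a65 by 0.70 ± 0.40 and 0.76 ± 0.40, neither of them called. FASN, the fatty acid synthase, changed by -0.15 ± 0.18 with PFOS and -0.12 ± 0.18 with PFECHS, and the clock repressor NR1D1 by -0.02 ± 0.18 and 0.09 ± 0.19.

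**Figure D5:**
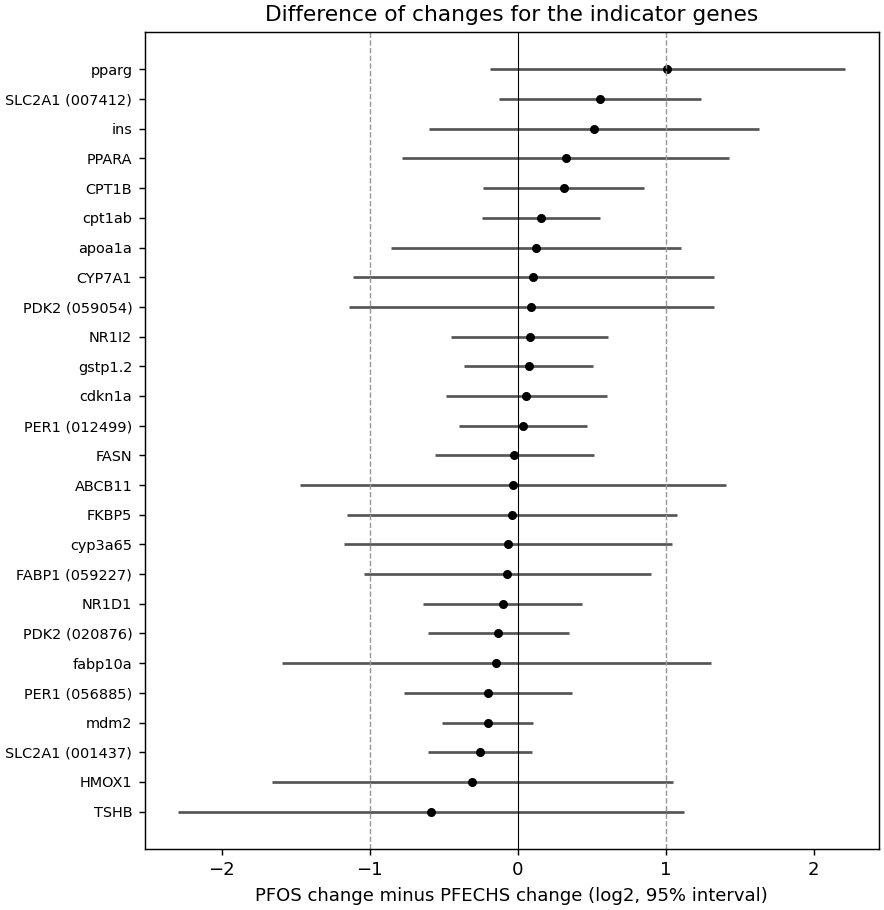
Difference of changes, PFOS minus PFECHS, in log2 units for 26 of the 30 indicator genes, with 95% intervals as lines; dashed lines mark a 2-fold difference. Left out are a copy of FABP1 with an SE above 1 and 3 genes not reported here. All plotted intervals cross 0, and the highest estimate is that of pparg at 1.01.

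Liver and gut lists had medians above 0 with both compounds, and their median differences lay on either side of 0. In conjugation and export 11 of 40 rose and 0 fell, with medians of 0.53 for PFOS and 0.42 for PFECHS. The efflux pump abcc3 held 11.4 to 20.4 CPM in the PFOS exposed pools, all above the PFOS controls, of which the lowest was at 8.41 CPM. For PFECHS it held 10.5, 11 and 12.1 CPM in the controls against 9.15 to 14.9 CPM in the exposed pools. The abcc3 difference of 0.48 ± 0.17, unadjusted p = 0.00794 by edgeR, was not called, and the pump ABCC4 changed by 0.58 ± 0.21 and 0.59 ± 0.21. The count of the list was 1 and 4 without PFOS control replicates 2 and 1, 2 and 4 without PFECHS control replicates 2 and 3, up to 18 without 1 other library, 18 by DESeq2 and 2 with only the 1 and 5 mg/L pools.

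In the bile acid list 6 of 15 rose, among them the bile acid importer SLC10A1 (1.21 ± 0.34) and the hormone FGF19 (0.91 ± 0.30). The FGF19 value rested on few counts in the controls. They held 0.163 to 0.286 CPM for PFOS and 0.146 to 0.527 CPM for PFECHS. The FGF19 exposed pools held 0.222 to 1.00 CPM and 0.108 to 0.816 CPM, so the groups overlapped in both series. SLC10A1 changed by 1.88 ± 0.50 with PFOS (adjusted p = 0.0430) and 0.54 ± 0.46 with PFECHS, with a difference of 1.34 ± 0.66. In the liver list 4 of 42 were called higher and in the intestine list 2 of 38, near or under the share over all genes. The liver medians were 0.55 for PFOS and 0.73 for PFECHS, and those of the intestine 0.48 and 0.44. Exocrine pancreas had 0 of 18 called, with medians of 0.50 and 0.61.

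Nuclear genes of oxidative phosphorylation had 0 of 78 called, with medians of -0.02 and -0.01. Of 74 cytosolic ribosome genes 9 fell, for example RPS13 (-0.21 ± 0.06), with medians of -0.14 and -0.09. That count was 0 without PFOS control replicate 1 or 2 or PFECHS control replicate 1 or 2, 3 without PFECHS control replicate 3, 5 without PFOS control replicate 3, up to 17 without 1 other library, 51 without the 4 libraries at the end of the table, 53 with table place as a term, 15 by DESeq2 and 0 with only the 1 and 5 mg/L pools. Of 50 genes of glycolysis and gluconeogenesis 14 rose and 2 fell, including PFKM (ENSDARG00000014179, 0.75 ± 0.16) and GAPDH (0.52 ± 0.13), with medians of 0.13 and 0.15.

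In stress and immune lists the counts higher and lower in the mean change were 4 and 3 of 28 for heat shock, 0 and 2 of 33 for the unfolded protein response, 1 and 1 of 42 for Nrf2 and antioxidant genes, 3 and 1 of 17 for the aryl hydrocarbon receptor, and 2 and 0 of 28 for the interferon response. In the last list TAP1, a peptide transporter for antigen display, had a PFECHS change of 1.31 ± 0.38 and a PFOS change of 0.11 ± 0.31, with PFECHS controls of 0.203, 0.228 and 0.219 CPM below the PFOS controls of 0.944, 0.381 and 0.459 CPM. The immediate early list had 3 higher and 3 lower of 44, with medians of 0.07 for PFOS and -0.13 for PFECHS.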

How the data were processed

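RNA of whole zebrafish embryos was sequenced by the authors. The submitters' processing notes name FastQC, MultiQC and Trimmomatic, without versions or settings. The deposited table holds expected counts (estimated counts that need not be whole), a unit read from the values: the share of non-whole values ran from 54.1% to 78.9% over the libraries. The 4 libraries at the table end had the highest shares, from 74.9% to 78.9%, and the next highest was 73.65%. What sets these libraries apart was not tested. Not given in the sources used here are the estimator, aligner, genome build and strandedness. A deposited line without a gene name was left out.

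Groups came from the labels. The libraries of the remaining compound, FBSA, stayed out of the main fit because the comparison concerns PFOS and PFECHS. They were also known beforehand to spread more within groups, which would have entered the shared estimate of spread. Counts were rounded, filtered with filterByExpr by group (22241 of 25859 genes kept), scaled by TMM and fitted with edgeR 4.0.16 in R 4.3.3, as 30 libraries in 10 groups with 20 residual degrees of freedom. The quasi-likelihood F test was used with Benjamini-Hochberg adjustment over all genes tested at 0.05. The SE is the size of the log2 change divided by the root of F, and intervals are at 95%. CPM use TMM library sizes, and log2 CPM a prior count of 2. Lists are described by counts and medians without a set test. Symbols came from a name table (23598 genes matched, 3608 sharing a symbol), and RefSeq synonyms of GRCz12tu were used for list names only. The calculation was tested on simulated data. Alternatives were DESeq2 1.42.0, RLE factors, no filter, all 44 libraries, a replicate block, only the 1 and 5 mg/L pools, joint adjustment, equal steps and leaving out each library. Another 2, leaving out the 4 libraries at the table end and a term for table place, were chosen after seeing the data. Members, lists and tests were chosen with earlier results of these data known.

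Up to 6 genes per direction were named for the pooled difference by the smallest p where none was called, and for other comparisons up to 3 called genes with the largest change, at a mean log2 CPM of at least 1. Placeholder symbols stayed unnamed. The genes klf1, DUSP1, FHL2, BCL6B, PRKG1, IRS2, TAP1 and the list members were named after their values were seen. Replicates of a group differed beyond counting noise, and replicate numbers did not pair libraries across groups. A few indicator genes and 1 list are not reported here.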

Additional observations from a re-analysis of the deposited data

How the results depend on the processing

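The pooled difference between PFOS and PFECHS was called for 0 genes in edgeR under RLE factors, no filter, all 44 libraries, the replicate block, only the 1 and 5 mg/L pools, without the libraries at the table end and with table place as a term. DESeq2 called 1 gene there, 0, 1, 0 and 1 at the 4 concentrations, 3 for the slope and 1 between controls. The gene outside the slope is ENSDARG00000114363, with log2 values from -46.5 to 23.3, too large to be read as folds. Leaving out 1 library gave 0 to 1 genes in each of these comparisons except the slope (0 to 3), and the single gene was ARG1, called without PFOS control replicate 1. The slope gave 5 genes without the libraries at the table end and 1, vgf, with table place.

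The PFOS count of 756 became 3 over all 44 libraries, 243 with only 1 and 5 mg/L, 2291 by DESeq2, 438 without the libraries at the table end and 1269 with table place, and 0 to 2420 without 1 library. PFECHS gave 6 by DESeq2 and 0 to 3 without 1 library. The mean change of 3735 became 235 over all 44 libraries, 1636 with only 1 and 5 mg/L, and 754 to 4877 without 1 library. The direct comparison of exposed pools (892) became 0 over all 44 libraries, 1829 by DESeq2, 5 without the libraries at the table end and 566 with table place, and 75 to 3129 without 1 library. RLE factors moved the PFOS split to 450 higher and 661 lower. The cause was not tested.

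Replicate numbers did not pair the libraries: deviations of same-numbered libraries had a median correlation of 0.0325 for PFOS and -0.0533 for PFECHS. With the replicate block the PFOS count was 10, that of the direct comparison 0, and that of the mean change 3018. No called gene named here turned direction in any setting run. The interval of the pooled difference, which is not adjusted for the number of genes, had a median half-width of 0.474 on the log2 scale. Smaller differences were mostly not detectable, and larger ones also went uncalled, for example in sema3ga and fam83ga.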
